A study of Mus musculus with 36 samples.

Results

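In all, 10 genes of alternative macrophage activation and immune suppression were followed across a mouse cell culture experiment: Arg1, Chil3, Retnla, Il10, Il4ra, Cd274, Tgfb1, Havcr2, Vsir and Il10ra. They were found by gene name among the 29883 genes of the deposited count table, and the list was drawn up with earlier results of these data known. Of the 10 genes 9 were measured in all 12 groups, and Retnla was not analysed here. Bulk RNA sequencing covered 2 cell types: mouse bone-marrow derived macrophages, and tumour cells of a line named PDG-Ink4a Recurrent, from a glioma model. That model expresses PDGFB in Nestin-positive progenitors on an Ink4a/Arf-null background. Each cell type was grown with the other (co-culture) or alone (mono-culture) and sampled at 0 h (labelled as control) or at 6 h or 24 h after myelin debris, with 3 libraries in each group. The tumour cells of every group therefore come from 1 line, which carries the PDGFB driver and the Ink4a/Arf loss in mono-culture too. The number of animals behind the macrophages is not given in the labels. Nor is it labelled whether the 3 libraries per group are separate cultures, so p-values here describe only how these libraries vary, which may be technical. The labels also do not say whether 0 h cultures were kept as long as the others, so myelin and time in culture cannot be told apart.

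Interleukin 4 and interleukin 13 act on macrophages through receptors that contain the Il4ra chain, which signals through STAT6. In mouse macrophages this switches on a programme called alternative activation, of which Arg1, Chil3 and Retnla are the classic markers. Interleukin 10 and TGF-beta restrain inflammation, and Cd274, Havcr2 and Vsir are surface proteins that dampen immune cells. Macrophages and microglia of gliomas are known to carry many of these molecules.

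Total counts per library ran from 7911378 to 15319104, with a median of 12262573. All 16 markers fixed for macrophages averaged at least 10 CPM (counts scaled to a common library total) over the 18 macrophage libraries. In the 18 tumour cell libraries 9 of the 15 measured glioma markers did so, among them Sox2 at 20.1 CPM and Pdgfra at 144 CPM. Olig1 had 0 counts there, Gfap, Sox10, Bcan, Ptprz1 and Fabp7 averaged at most 0.192 CPM, and 4 of 5 fibroblast markers passed 10 CPM. Several defining glial transcripts were thus absent or near 0 in the tumour line. Libraries of each cell type held transcripts of markers of the other. In macrophage libraries 7 of the 15 glioma markers also averaged at least 10 CPM. In tumour cell libraries 12 of the 16 macrophage markers did so. The number of markers over 10 CPM thus does not by itself separate the cell types. The macrophage share of tumour cell libraries, a median over macrophage markers, was 0.0355% to 6.46%. It was at most 0.114% in the 6 tumour cell libraries numbered 1. The highest share was in a mono-culture library at 24 h. At that time mono-culture averaged 3.90% ± 3.39 and co-culture 3.48% ± 2.96 (SD, n = 3 each), while co-culture averaged higher at 0 h and 6 h. The source of macrophage transcripts in tumour cells grown alone was not tested. The tumour cell share of macrophage libraries averaged 2.13% ± 0.99 at 0 h, 1.83% ± 1.04 at 6 h and 4.92% ± 0.79 at 24 h in co-culture (SD, n = 3 each), against at most 0.951% in any mono-culture library. Both shares are scaled to the other cell type in mono-culture at 0 h, and the tumour cell share rests on 4 markers. A change of those markers with culture or time would also move a share. In bulk RNA, fewer cells of a type and less RNA per cell cannot be told apart.

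Of the genes, 3 differed between cultures in macrophages at each of the 3 times: Il4ra and Havcr2 were higher in co-culture and Vsir was lower. Of all genes tested, 13.7% differed at 0 h, 9.94% at 6 h and 28% at 24 h. The share that differed at all 3 times was not computed, so the count of 3 has no background beside it. Promoters of these 3 genes are shown because they differed at each time. Each is 300 bases from RefSeq on build GRCm38.p6, 250 before and 50 after the start, on the plus strand, with CG pairs in capitals. Il4ra is read from chr7:125552021-125552320, Havcr2 from chr11:46454681-46454980 and Vsir from chr10:60346601-60346900.
Il4ra: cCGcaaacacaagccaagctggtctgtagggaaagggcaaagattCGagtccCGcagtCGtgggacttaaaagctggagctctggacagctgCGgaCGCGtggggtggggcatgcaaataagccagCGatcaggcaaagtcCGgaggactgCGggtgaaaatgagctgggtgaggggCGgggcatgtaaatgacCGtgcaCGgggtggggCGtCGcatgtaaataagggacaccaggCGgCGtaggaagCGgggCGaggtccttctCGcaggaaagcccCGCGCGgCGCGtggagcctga
Havcr2: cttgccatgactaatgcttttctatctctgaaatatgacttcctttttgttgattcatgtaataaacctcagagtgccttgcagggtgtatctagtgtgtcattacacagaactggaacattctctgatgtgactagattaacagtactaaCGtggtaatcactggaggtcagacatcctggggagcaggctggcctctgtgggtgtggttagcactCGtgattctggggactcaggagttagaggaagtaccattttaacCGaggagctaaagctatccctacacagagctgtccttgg
Vsir: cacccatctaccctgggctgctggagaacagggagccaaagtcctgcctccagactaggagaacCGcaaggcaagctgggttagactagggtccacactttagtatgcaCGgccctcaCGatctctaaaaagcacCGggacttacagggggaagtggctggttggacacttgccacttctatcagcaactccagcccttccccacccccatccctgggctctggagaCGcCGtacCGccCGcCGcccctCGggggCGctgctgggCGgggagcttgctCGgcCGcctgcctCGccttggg

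The promoter of Il4ra held 25 CG pairs, that of Vsir 15 and that of Havcr2 3, against a median of 7 over 32851 mouse promoters of the same length. Of the 10 genes 7 had a promoter in the table. Searches used TTCNNNNGAA (the STAT6 type of palindrome), TTCNNNGAA (the spacing of other STAT factors), GAAANNGAAA (the interferon response type) and TATAAA, on both strands, where the palindromes read the same on either. No searched letters were found in these 3 windows, nor in those of Cd274 and Tgfb1. Chil3 held 1 TTCNNNGAA match, TTCTTAGAA, and 1 TATAAA. The window of Retnla held 1 TTCNNNNGAA match and 1 TATAAA. Of all promoters 6.95% held TTCNNNNGAA, 8.30% TTCNNNGAA, 3.44% GAAANNGAAA and 13.6% TATAAA.

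Il4ra, the signalling chain of the interleukin 4 and 13 receptors, lies on chromosome 7 (mm10, 125552120 to 125579474, plus strand). At 0 h it measured 116, 157 and 133 CPM in co-cultured macrophages, against 46.8, 55.7 and 51.3 CPM in mono-culture. At 6 h it measured 138, 146 and 143 CPM in co-culture and 57.4, 77.3 and 73.5 CPM in mono-culture. At 24 h the levels were 132, 111 and 91.2 CPM in co-culture, against 48.0, 47.5 and 51.2 CPM in mono-culture. Every co-culture library stood above every mono-culture library of its time. Co-culture exceeded mono-culture by a log2 change of 1.40 ± 0.14 (SE, n = 3 each) at 0 h, which is 2.64 times the mono-culture mean (adjusted p = 9.97e-06, edgeR quasi-likelihood test, Benjamini-Hochberg over 13165 genes). The change was 1.03 ± 0.14 at 6 h (adjusted p = 0.000197) and 1.19 ± 0.14 at 24 h (adjusted p = 2.24e-05). Tumour cells express Il4ra as well. At the median marker shares their RNA would bring at most 3.58 CPM to any macrophage library.

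Of the 9 genes measured in macrophages, 4 were called at 0 h, 3 at 6 h and 5 at 24 h between co-culture and mono-culture, where called means an adjusted p under 0.05. Among all genes tested 13.7% were called at 0 h (7.69% higher and 6.02% lower), 9.94% at 6 h (5.81% higher and 4.12% lower) and 28% at 24 h (14.3% higher and 13.7% lower). Of the 9 genes, 2 were higher and 2 lower at 0 h, 2 and 1 at 6 h, and 3 and 2 at 24 h. DESeq2 called 5, 3 and 4 of the 9 genes, and 13%, 10.3% and 25.4% of all genes it tested. The 9 genes had no common direction, and their median log2 change was 0.39 at 0 h, -0.15 at 6 h and -0.11 at 24 h, beside -0.02, -0.03 and -0.03 over all genes tested.

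**Figure D1:**
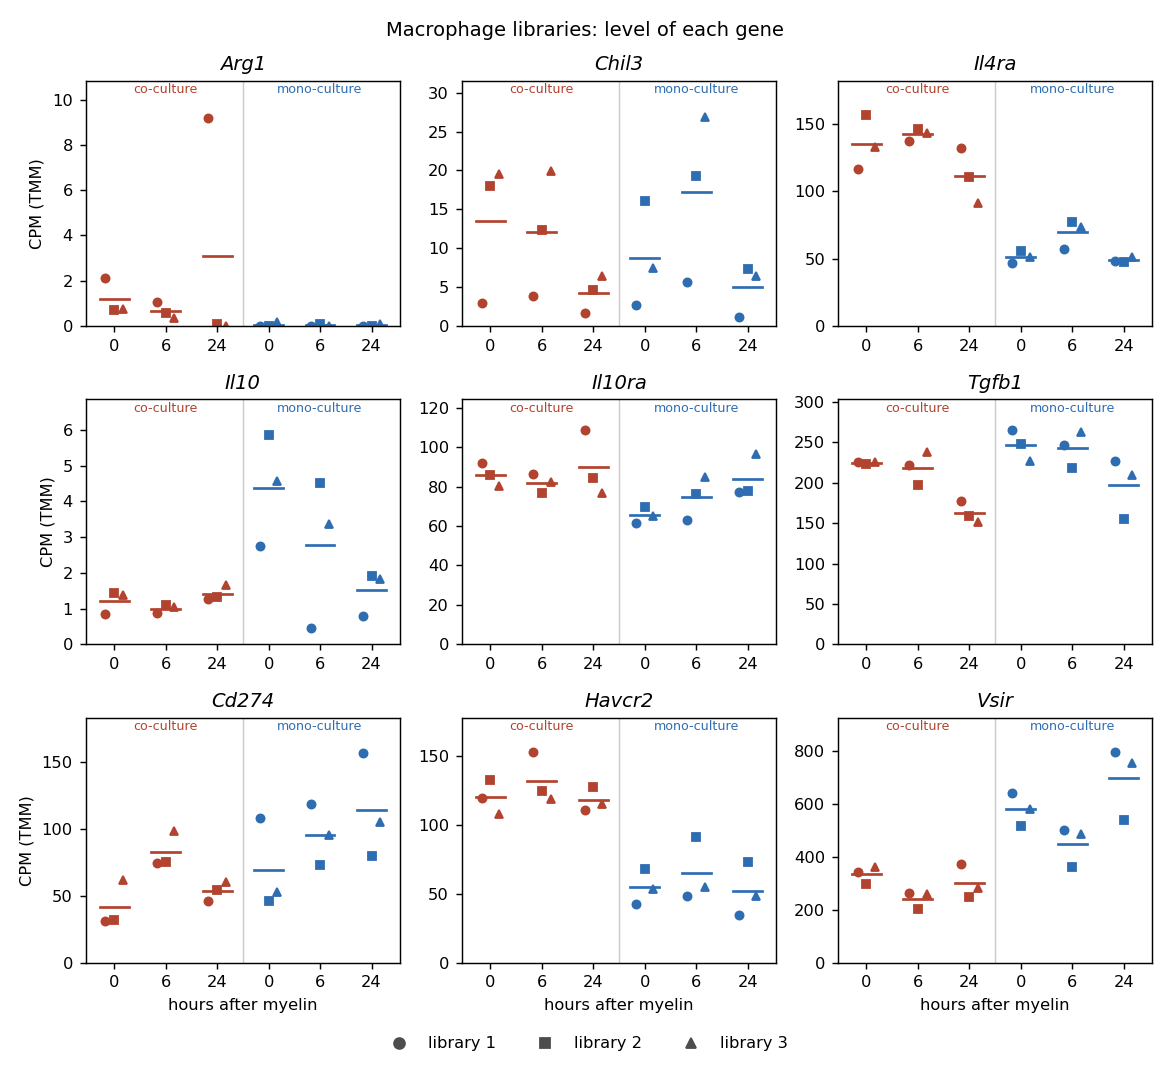
Level of each of the 9 genes in CPM after TMM normalisation (vertical axes, each from 0) in the 18 macrophage libraries, by hours after myelin (horizontal axes), with co-culture left of mono-culture; bars are group means and symbols give the library number. Co-culture libraries of Il4ra and Havcr2 stand above, and those of Vsir below, the mono-culture libraries at every time.

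Of the classic markers of alternative activation, Arg1 and Chil3 were measured. Arg1, the arginase that competes for arginine with nitric oxide synthase, lies on chromosome 10 (24915221 to 24927484, minus strand) and was near the lower limit of counting. In co-cultured macrophages it had 20, 10 and 9 counts at 0 h, 11, 8 and 5 counts at 6 h, and 102, 1 and 0 counts at 24 h. Mono-cultured macrophages held 0, 0 and 2 counts at 0 h, 0, 1 and 0 at 6 h, and 0, 0 and 1 at 24 h. Every co-culture library at 0 h and 6 h stood above the mono-culture libraries, and at 24 h 1 library held 102 of the 103 counts. Summed over libraries and scaled for depth, co-culture held 19.0 times the mono-culture level at 0 h (exact 95% interval 4.92 to 162, which covers counting error only). The ratio was 21.0 at 6 h (3.43 to 865) and 97.9 at 24 h (17.2 to 3902). The test across libraries called Arg1 at 24 h (log2 change 6.33 ± 1.88, adjusted p = 0.0202), and without that library the change was 0.32 and not called. Without the low-count filter the adjusted p at 24 h was 0.0661. Leaving out any single mono-culture library at 24 h also lost the call. Arg1 was not called at 0 h (adjusted p = 0.156) or at 6 h (adjusted p = 0.255). The related arginase gene Arg2 had at most 10 counts in any macrophage library.

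Chil3, a secreted chitinase-like protein of alternatively activated mouse macrophages that mouse neutrophils also make, lies on chromosome 3 (106147554 to 106167564, minus strand). It measured 2.94, 18.0 and 19.6 CPM at 0 h, 3.84, 12.4 and 19.9 CPM at 6 h and 1.71, 4.58 and 6.43 CPM at 24 h in co-cultured macrophages. In mono-culture it measured 2.74, 16.1 and 7.43 CPM at 0 h, 5.63, 19.4 and 26.9 CPM at 6 h and 1.20, 7.38 and 6.46 CPM at 24 h. Library 1 was the lowest of its group in all 6 groups, and co-culture and mono-culture overlapped at every time. No Chil3 change between the cultures passed the test, with log2 changes of 0.58 ± 0.79 at 0 h, -0.54 ± 0.77 at 6 h and -0.26 ± 0.88 at 24 h. Its log2 change at 24 h against 0 h was -1.67 ± 0.84 in co-culture (adjusted p = 0.217). With the library number as a block this was -1.62 ± 0.30 (adjusted p = 0.00223), and the numbers pair the libraries there. Over the 18 macrophage libraries, log2 CPM of Chil3 and of the summed 8 neutrophil markers had a Pearson r of 0.952 and a Spearman rho of 0.905, as a description of libraries made by 1 protocol whose cultures and times differ. The most similar genes over these libraries were S100a9, Ngp and S100a8, with r of 0.974, 0.947 and 0.941. None of the 8 neutrophil markers averaged 10 CPM, and Ly6g had 0 counts in every macrophage library. The part of neutrophil RNA in the Chil3 level was not tested. The related gene Chil1 had at most 3 counts in any macrophage library, and Retnlg, a relative of Retnla, at most 1.

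**Figure D2:**
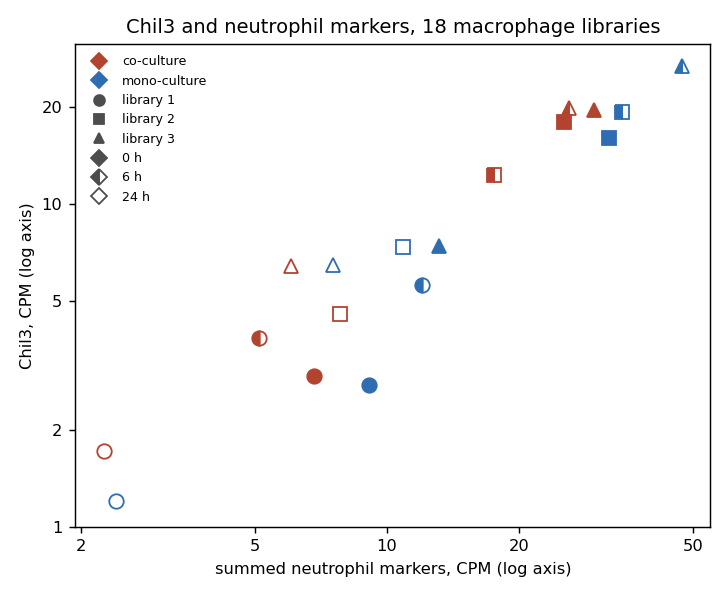
Chil3 level against the summed level of 8 neutrophil markers, both in CPM on log axes, in the 18 macrophage libraries; colour gives the culture, shape the library number and fill the time. Within each group the library numbered 1 has the lowest of both levels. Within each culture and library number both levels are lowest at 24 h, and the points lie along 1 line (Pearson r = 0.952).

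Other genes of the interleukin 4 and STAT6 programme were called in both directions. Of 21 tested, 4 were higher and 3 lower in co-culture at 0 h (7.69% and 6.02% of all genes tested), 4 and 3 at 6 h (5.81% and 4.12%), and 9 and 5 at 24 h (14.3% and 13.7%). Their median log2 change was 0.17, 0.25 and 0.15 at 0 h, 6 h and 24 h, beside -0.02, -0.03 and -0.03 over all genes tested. Tgm2, a transglutaminase and marker of alternative activation, rose to 227 ± 70.0 CPM in co-culture at 0 h, against 78.4 ± 13.7 CPM in mono-culture, a log2 change of 1.53 ± 0.27 (adjusted p = 0.00138). Slc7a2, an arginine transporter, rose by 1.41 ± 0.32 at 0 h (adjusted p = 0.00818). Egr2, a transcription factor induced by interleukin 4, fell to 42.1 ± 8.42 CPM in co-culture at 0 h, against 143 ± 33.5 CPM in mono-culture, a log2 change of -1.76 ± 0.24 (adjusted p = 0.000198). Pparg, a nuclear receptor of lipid metabolism that supports alternative activation, fell to 21.8 ± 3.66 CPM in co-culture at 0 h, against 54.1 ± 6.30 CPM in mono-culture (log2 change -1.31 ± 0.13, adjusted p = 8.74e-06). All 4 kept these directions and calls at 6 h and 24 h. The part of tumour cell RNA in the Tgm2 and Slc7a2 rises was not tested. Among 7 genes of opposing arginine use and inflammation only 4 passed the filter on low counts, and of these Ass1, which remakes arginine from citrulline, rose by 1.62 ± 0.38 at 0 h (adjusted p = 0.0102). Nos2, the inducible nitric oxide synthase, averaged at most 0.269 CPM in any macrophage group.

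Il10, the suppressive cytokine itself, was lower in co-culture at 0 h. It (chromosome 1, 131019845 to 131024974) had 0.840, 1.45 and 1.38 CPM in co-cultured macrophages at 0 h, against 2.74, 5.84 and 4.57 CPM in mono-culture. All 3 co-culture libraries stood below the mono-culture libraries at 0 h. The log2 change was -1.84 ± 0.52 (adjusted p = 0.0259), and it failed the test when any of 5 of the 6 libraries was left out, with changes of -1.57 to -2.07 over the 6 fits. At 6 h Il10 had 0.864, 1.10 and 1.03 CPM in co-culture, against 0.457, 4.52 and 3.37 CPM in mono-culture, so the groups overlapped. The change at 6 h was -1.52 ± 0.52 (adjusted p = 0.0826). At 24 h the levels were 1.26, 1.34 and 1.65 CPM in co-culture and 0.802, 1.92 and 1.82 CPM in mono-culture, a log2 change of -0.11 ± 0.52 (adjusted p = 0.901). Il10 was thus low in co-culture at all times, and the mono-culture level at 24 h overlapped it. In mono-culture the log2 change at 24 h against 0 h was -1.53 ± 0.51 (adjusted p = 0.0522). With the library number as a block it was -1.53 ± 0.34 (adjusted p = 0.00434), and DESeq2 gave an adjusted p of 0.0275.

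Il10ra, the chain of the receptor that binds interleukin 10, lies on chromosome 9 (45253837 to 45269149, minus strand). At 0 h it measured 91.8, 86.0 and 80.3 CPM in co-culture, against 61.8, 69.5 and 65.2 CPM in mono-culture. The groups did not overlap, but the log2 change of 0.39 ± 0.13 missed the threshold (adjusted p = 0.0563). DESeq2 gave 0.0272, and a fit to the 6 libraries alone gave 0.0162. At 6 h and 24 h the groups overlapped, with log2 changes of 0.13 ± 0.13 and 0.10 ± 0.13 that were not called. In mono-culture Il10ra measured 77.5, 77.6 and 96.3 CPM at 24 h, all above the 0 h libraries, a log2 change of 0.35 ± 0.13 that was not called (adjusted p = 0.0773). Of 10 genes of the interleukin 10 receptor, STAT3 and its targets, 2 were higher and none lower in co-culture at 0 h, 4 and 1 at 6 h, and 4 and 1 at 24 h, beside the shares of all genes given above (14.3% higher and 13.7% lower at 24 h). Their median log2 change was 0.36, 0.32 and 0.54. Socs3, the feedback inhibitor of cytokine signalling that STAT3 induces, rose to 16.1 ± 6.87 CPM in co-culture at 0 h, against 2.82 ± 1.15 CPM in mono-culture. Its log2 change was 2.46 ± 0.43 at 0 h (adjusted p = 0.00135), 2.58 ± 0.44 at 6 h (adjusted p = 0.0014) and 2.34 ± 0.44 at 24 h (adjusted p = 0.00112). The part of tumour cell RNA in the Socs3 change was not tested. Stat3 itself rose by 0.36 ± 0.11 at 6 h (adjusted p = 0.0454). Prdm1, of the same list, fell by 1.27 ± 0.31 in co-culture at 24 h (adjusted p = 0.00654).

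Tgfb1, the TGF-beta ligand of immune cells, lies on chromosome 7 (25687002 to 25705077) and was not called between cultures at any time. At 0 h it measured 225, 223 and 225 CPM in co-cultured macrophages and 265, 247 and 227 CPM in mono-culture. Its level was 221, 197 and 238 CPM at 6 h and 177, 159 and 152 CPM at 24 h in co-culture. Mono-culture libraries held 246, 218 and 263 CPM at 6 h and 227, 155 and 209 CPM at 24 h. All 3 co-culture libraries at 24 h stood below those at 0 h, and so did those in mono-culture, where the highest at 24 h and the lowest at 0 h both rounded to 227 CPM. The co-culture change at 24 h against 0 h was -0.47 ± 0.12 (adjusted p = 0.0209), and was lost without library 2 or 3 of either group. The mono-culture change was -0.32 ± 0.12 (adjusted p = 0.083), and -0.33 ± 0.10 with the block (adjusted p = 0.0242). The difference between these changes, co-culture minus mono-culture, was -0.14 ± 0.17 and was not called (adjusted p = 0.95). Between cultures its log2 changes were -0.13 ± 0.12 at 0 h, -0.15 ± 0.12 at 6 h and -0.28 ± 0.12 at 24 h.

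Genes that release or pass on the TGF-beta signal were called in both directions. Of 20 tested, 8 were higher and 2 lower in co-culture at 0 h (7.69% and 6.02% of all genes tested), 6 and 1 at 6 h (5.81% and 4.12%), and 11 and 2 at 24 h (14.3% and 13.7%). Their median log2 change was 0.54, 0.11 and 0.53 at 0 h, 6 h and 24 h. Tgfbi, a matrix protein induced by TGF-beta, rose to 2385 ± 583 CPM in co-culture at 0 h, against 685 ± 304 CPM in mono-culture, a log2 change of 1.80 ± 0.42 (adjusted p = 0.00948). Tumour cells in co-culture at 0 h held 45.0 ± 15.0 CPM of it. Thbs1, which activates latent TGF-beta, rose to 196 ± 53.3 CPM in co-cultured macrophages at 0 h, against 12.1 ± 7.73 CPM in mono-culture (log2 change 3.95 ± 0.54, adjusted p = 0.000258). The tumour cells of that co-culture held 5314 ± 543 CPM, and the tumour cell share of the macrophage libraries was 2.13%, whose part in the Thbs1 change was not tested. The same holds for Ltbp1, which tethers latent TGF-beta to matrix. It averaged 10.5 ± 1.68 CPM in co-cultured macrophages at 24 h, against 0.924 ± 0.859 CPM in mono-culture (log2 change 3.48 ± 0.55, adjusted p = 0.000325), and tumour cells of that co-culture held 294 ± 44.8 CPM. Nrros, which anchors latent TGF-beta on macrophages, fell by 0.47 ± 0.09 on the log2 scale in co-culture at 0 h (adjusted p = 0.00277). It also fell in mono-culture at 6 h against 0 h, by 0.58 ± 0.09 (adjusted p = 0.00717), the only gene of the partner lists called in that comparison. Lrrc32, another anchor of latent TGF-beta, fell by 1.52 ± 0.32 in co-culture at 24 h (adjusted p = 0.0028).

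Havcr2, which encodes the inhibitory receptor TIM-3, lies on chromosome 11 (46454935 to 46481255). At 0 h it measured 120, 133 and 108 CPM in co-cultured macrophages, against 43.0, 67.7 and 53.2 CPM in mono-culture. At 6 h the levels were 153, 125 and 119 CPM in co-culture and 48.5, 91.0 and 55.1 CPM in mono-culture. At 24 h they were 111, 128 and 115 CPM in co-culture and 34.4, 73.1 and 48.3 CPM in mono-culture. The cultures did not overlap at any time, and library 2 was the highest mono-culture library each time. The log2 change was 1.13 ± 0.25 at 0 h (adjusted p = 0.00786), 1.01 ± 0.25 at 6 h (adjusted p = 0.0179) and 1.18 ± 0.25 at 24 h (adjusted p = 0.00319). At 6 h it missed the test without library 1 of either group or without mono-culture library 3, at 0.86 to 0.90. The related genes Havcr1 and Timd4 had at most 1 count in any macrophage library. Lgals9, a described ligand of TIM-3, rose alongside, to 109 ± 4.22 CPM in co-culture at 0 h, against 51.8 ± 2.92 CPM in mono-culture. Its log2 change was 1.08 ± 0.12 at 0 h (adjusted p = 3.46e-05), 1.14 ± 0.12 at 6 h (adjusted p = 3.42e-05) and 1.39 ± 0.12 at 24 h (adjusted p = 2.43e-06). In co-culture Lgals9 was also higher at 24 h after myelin than at 0 h, by 0.67 ± 0.12 (adjusted p = 0.00264), where myelin and time in culture cannot be told apart.

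Vsir, which encodes the checkpoint protein VISTA, lies on chromosome 10 (60346851 to 60372684, plus strand) and was lower in co-culture. At 0 h it measured 345, 298 and 361 CPM in co-culture, against 642, 516 and 583 CPM in mono-culture. At 6 h it measured 264, 203 and 261 CPM in co-culture and 503, 361 and 486 CPM in mono-culture. At 24 h the levels were 372, 250 and 283 CPM in co-culture, against 797, 541 and 754 CPM in mono-culture. Every co-culture library stood below every mono-culture library of its time. The log2 change was -0.79 ± 0.18 at 0 h (adjusted p = 0.0068), -0.89 ± 0.18 at 6 h (adjusted p = 0.00388) and -1.21 ± 0.18 at 24 h (adjusted p = 0.000168). Co-culture thus held 0.577, 0.539 and 0.433 times the mono-culture mean at 0 h, 6 h and 24 h. The gene sits inside Cdh23, which is read from the other strand, and no source used here says whether counting used strand. Cdh23 had 4 to 34 counts in the macrophage libraries, far fewer than Vsir.

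Over the 18 macrophage libraries the log2 levels of Havcr2 and Vsir ran opposite, with a Pearson r of -0.93, and those of Il4ra and Vsir had r = -0.89. Il4ra and Havcr2 had r = 0.90. These are descriptions across libraries whose cultures differ, with no test. By the same measure the genes most like Il4ra were Il17ra (0.966), Trem1 (0.965) and Pmepa1 (0.961). Those most like Havcr2 were Luzp1 (0.969), Elk3 (0.962) and Cpd (0.961), and those most like Vsir were Ksr2 (0.961), Arhgap39 (0.960) and Fam117a (0.955).

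Cd274, which encodes the checkpoint ligand PD-L1, lies on chromosome 19 (29367455 to 29388095) and differed widely between libraries of a group. In co-culture it measured 31.5, 31.8 and 62.1 CPM at 0 h, 74.5, 75.5 and 98.6 CPM at 6 h and 45.9, 54.2 and 60.8 CPM at 24 h. In mono-culture it measured 108, 46.1 and 53.0 CPM at 0 h, 118, 72.8 and 95.3 CPM at 6 h and 157, 79.6 and 105 CPM at 24 h. Mono-culture library 1 was the highest of its group at each time, and the cultures overlapped at 0 h and 6 h but not at 24 h. The change at 24 h was -1.08 ± 0.34 (adjusted p = 0.0259). It failed the test without mono-culture library 1, with a change of -0.77, and without co-culture library 1 (-0.97) or 2 (-1.09). Libraries 2 and 3 alone gave -0.68 (adjusted p = 0.135), and without the low-count filter the adjusted p was 0.0925. Co-culture libraries at 6 h all stood above those at 0 h, but the log2 change of 0.99 ± 0.34 was not called (adjusted p = 0.235). The genes most like Cd274 were Arl8b (0.951), Ctns (0.942) and Rilpl2 (0.939).

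**Figure D3:**
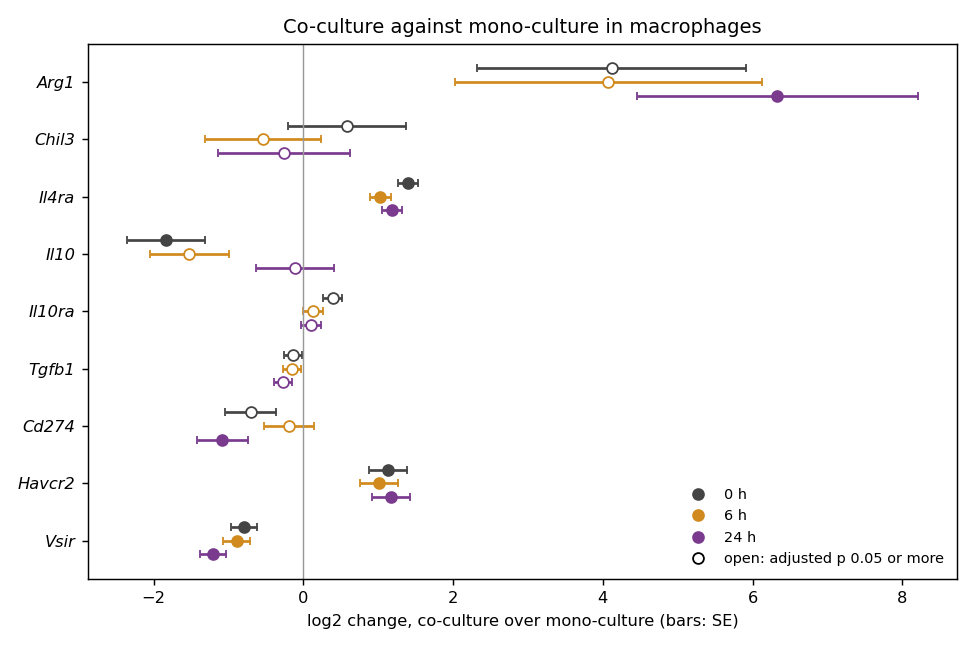
Log2 change in macrophages, co-culture over mono-culture (horizontal axis, bars are SE), for the 9 genes at 0 h, 6 h and 24 h; filled points have an adjusted p under 0.05. Il4ra and Havcr2 lie near 1 and Vsir near -1 at each time, and Arg1 has the widest bars.

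Of 21 other checkpoint and suppression genes tested, 4 were higher and 2 lower in co-culture at 0 h (7.69% and 6.02% of all genes tested), 4 and 0 at 6 h (5.81% and 4.12%), and 7 and 3 at 24 h (14.3% and 13.7%). Their median log2 change was 0.23, 0.18 and 0.20, and the share of the list that was lower at 24 h was close to that of all genes. Ptgs2, the inducible prostaglandin synthase, rose to 20.7 ± 2.70 CPM in co-cultured macrophages at 24 h, against 3.41 ± 1.35 CPM in mono-culture (log2 change 2.57 ± 0.59, adjusted p = 0.00464). Tumour cells of that co-culture held 227 ± 80.4 CPM of it, whose part was not tested. Pirb, an inhibitory receptor, fell by 0.43 ± 0.11 at 0 h (adjusted p = 0.011) and by 0.69 ± 0.11 at 24 h (adjusted p = 0.000201). Cd200r1, an inhibitory receptor of macrophages, fell by 0.49 ± 0.11 at 0 h (adjusted p = 0.00789) and by 0.47 ± 0.11 at 24 h (adjusted p = 0.00583). Lilrb4a, another inhibitory receptor, rose by 0.63 ± 0.19 at 6 h (adjusted p = 0.0477). Among 8 genes of the interferon input to Cd274, none was higher and 1 lower at 0 h, 3 and 1 at 6 h, and 4 and 2 at 24 h, with median log2 changes of -0.03, 0.14 and 0.17. Irf1, an activator of the Cd274 gene, fell by 0.86 ± 0.20 at 0 h (adjusted p = 0.00773), by 0.81 ± 0.20 at 6 h (adjusted p = 0.0146) and by 1.08 ± 0.19 at 24 h (adjusted p = 0.000767). Stat2, a transcription factor of the type I interferon pathway, rose by 0.95 ± 0.20 at 6 h (adjusted p = 0.00555) and by 0.85 ± 0.20 at 24 h (adjusted p = 0.00452).

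**Figure D4:**
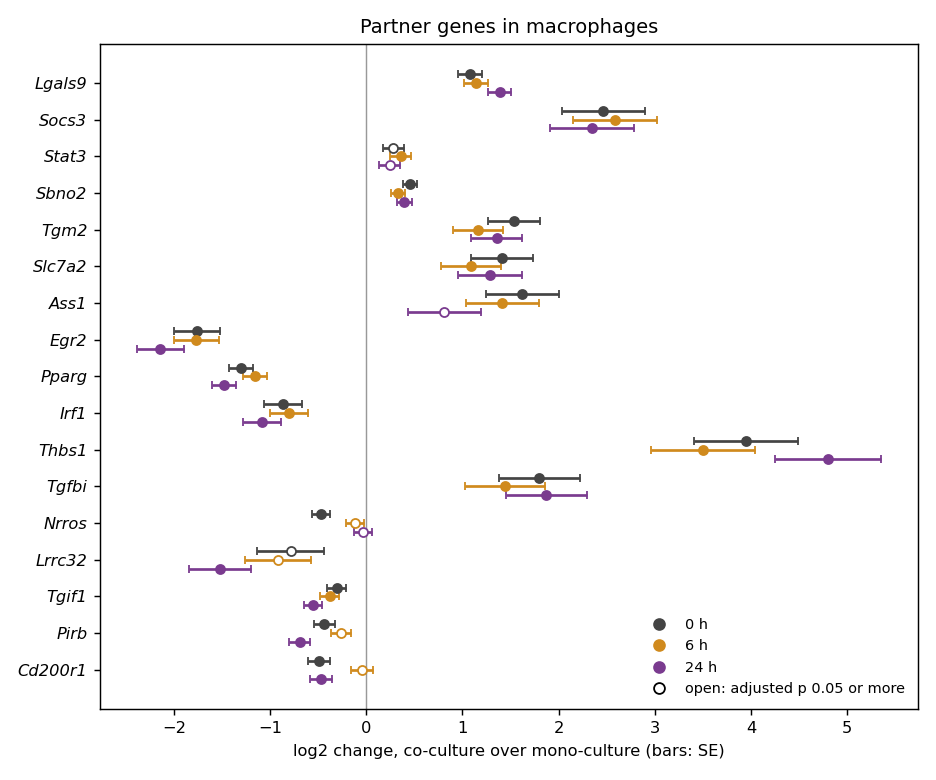
Log2 change in macrophages, co-culture over mono-culture (horizontal axis, bars are SE), of genes from the partner lists at 0 h, 6 h and 24 h; filled points have an adjusted p under 0.05. Lgals9, Socs3 and Tgm2 are higher and Egr2, Pparg and Irf1 lower in co-culture at each time.

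In macrophages after myelin, the main fits called at most 1 of the 9 genes against 0 h in any comparison. With 9 genes, such counts are too small to be told apart from the shares of all genes given beside them. Against 0 h, none of the 9 genes was called in mono-culture at 6 h (2.15% of all genes were called) or at 24 h (15.2%). In co-culture none was called at 6 h (0.213% of all genes) and 1 of 9, Tgfb1, at 24 h (11.4%). At an unadjusted p under 0.05, edgeR passed 1 of the 9 in mono-culture at 6 h, 4 at 24 h, and 2 in co-culture at each of 6 h and 24 h. The share of all genes at that unadjusted threshold was not computed, so these counts have no background beside them. In mono-culture at 6 h and 24 h and in co-culture at 6 h, DESeq2 called 0, 1 and 0 of the 9. It called 5.3%, 17.9% and 2.55% of all genes there. The numbers pair the libraries in these comparisons, and with the block 1 gene was called in mono-culture at 6 h (5.07% of all genes with the block), 3 at 24 h (22.2%), 1 in co-culture at 6 h (1.79%) and 2 at 24 h (19.7%). The counts of 3 and 2 of 9 are near those shares. Vsir was called with the block at 6 h against 0 h in both cultures, by -0.47 ± 0.09 in co-culture (adjusted p = 0.0162) and by -0.38 ± 0.08 in mono-culture (adjusted p = 0.0178). In mono-culture at 24 h its blocked change was 0.25 ± 0.08 (adjusted p = 0.0431). Il4ra stood higher in all 3 mono-culture libraries at 6 h than at 0 h, a log2 change of 0.44 ± 0.14 that was not called (adjusted p = 0.114). The difference of myelin changes between cultures was called for none of the 9 genes by edgeR or DESeq2 at 6 h (0% of all genes) or 24 h (0.0152%). At an unadjusted p under 0.05 there was 0 at 6 h and 1 at 24 h, again with no share of all genes beside them. These comparisons share their 0 h libraries with the co-culture comparison at 0 h.

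In mono-culture at 24 h against 0 h, where 7.57% of all genes were higher and 7.61% lower, none of the 21 interleukin 4 genes was higher and 3 were lower, and of the 20 TGF-beta genes 3 were higher and 5 lower. Myc fell by 1.47 ± 0.29 (adjusted p = 0.00479) and Odc1, which makes polyamines from the product of arginase, by 0.94 ± 0.23 (adjusted p = 0.0124). Odc1 fell by 0.81 ± 0.22 in co-culture too (adjusted p = 0.0279). Smad7, the feedback inhibitor of TGF-beta signalling, fell at 24 h by 0.84 ± 0.16 in co-culture (adjusted p = 0.00434) and by 0.78 ± 0.17 in mono-culture (adjusted p = 0.00693). Lrrc32 rose by 1.22 ± 0.32 in mono-culture at 24 h (adjusted p = 0.0204).

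In mono-culture at 0 h, 7 of the 9 genes were called between the cell types, all 7 higher in macrophages. Of all genes tested 70% were called, and 32.4% were higher in macrophages, so the number called in either direction is near the share of all genes. Vsir was higher in macrophages by a log2 change of 5.61 ± 0.23 (adjusted p = 5.7e-18), Il10ra by 6.38 ± 0.99 (adjusted p = 2.69e-06), Cd274 by 4.07 ± 0.37 (adjusted p = 1.25e-10) and Tgfb1 by 3.17 ± 0.18 (adjusted p = 3.75e-15). Chil3 and Il10 had 0 counts in the 3 tumour cell libraries at 0 h in mono-culture. Against a floor of 3 counts over that group, macrophages held at least 99.9-fold more Chil3 and at least 50.1-fold more Il10. Havcr2 was higher by 1.46 ± 0.57 (adjusted p = 0.0253), and lost its call without tumour cell library 1 (1.18) or macrophage library 2 (1.33). Il4ra did not pass, with a log2 difference of 0.15 ± 0.24 (adjusted p = 0.584), nor did Arg1 (adjusted p = 0.6). In the order of group means the 3 co-cultured macrophage groups stood highest for Il4ra, and the mono-cultured macrophages stood among the tumour cell groups with overlapping libraries. For Cd274, Tgfb1, Vsir, Il10ra, Chil3 and Il10 all 6 macrophage groups stood above all 6 tumour cell groups, with no overlap of libraries at that step. The share of all genes that separate the cell types in this way was not computed, so this only describes these genes.

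In tumour cells Il4ra measured 45.9, 70.0 and 74.3 CPM at 0 h, 56.0, 106 and 102 CPM at 6 h and 65.2, 57.0 and 68.3 CPM at 24 h in co-culture. In mono-culture it measured 33.7, 56.6 and 54.4 CPM at 0 h, 41.0, 63.2 and 75.6 CPM at 6 h and 36.3, 41.5 and 51.7 CPM at 24 h. Co-culture stood higher in each same-numbered pair of libraries, and the groups did not overlap at 24 h. The log2 change at 24 h was 0.56 ± 0.28 (adjusted p = 0.409), and 0.59 ± 0.16 with the block (adjusted p = 0.0459), where the numbers pair the libraries. At the median marker shares, macrophage RNA would bring at most 8.22 CPM of Il4ra to any tumour cell library. Some single markers gave higher shares. Whether Il4ra rose more in macrophages than in tumour cells was a comparison added after the data were seen. The co-culture change was larger in macrophages by 1.10 ± 0.33 at 0 h (adjusted p = 0.0466, where 5.87% of all genes were called), by 0.59 ± 0.33 at 6 h (adjusted p = 0.471) and by 0.75 ± 0.33 at 24 h (adjusted p = 0.184). The call at 0 h was lost with RLE size factors (adjusted p = 0.0563) and in 9 of the 12 fits that each left out 1 library. For Vsir the difference was -0.79 ± 0.27 at 24 h (adjusted p = 0.0547). No other gene passed this comparison, in which 4.62% of all genes were called at 6 h and 10.4% at 24 h.

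Havcr2 was present in every tumour cell library. It measured 8.89, 37.3 and 46.1 CPM at 0 h, 17.9, 49.2 and 46.2 CPM at 6 h and 3.91, 18.0 and 24.8 CPM at 24 h in co-culture. Mono-cultured tumour cells held 12.0, 23.7 and 26.7 CPM at 0 h, 9.40, 38.7 and 40.1 CPM at 6 h and 5.28, 14.1 and 17.5 CPM at 24 h. Library 1 was the lowest in every group. At the median marker shares, macrophage RNA would bring at most 7.30 CPM, and the measured level was above the brought level in 18 of 18 libraries. That highest value is for co-culture library 2 at 0 h, where the median share was 6.07% and single markers gave 4.24% to 28.3%. The brought level there could thus be well above 7.30 CPM, and its part in the Havcr2 level was not tested. At 24 h against 0 h the change was -0.98 ± 0.73 in co-culture (adjusted p = 0.575) and -0.76 ± 0.74 in mono-culture (adjusted p = 0.54). With the block it was -0.99 ± 0.21 in co-culture (adjusted p = 0.0134) and -0.84 ± 0.22 in mono-culture (adjusted p = 0.0137).

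Vsir was lower in tumour cells than in macrophages, and its level lay on both sides of what macrophage RNA would bring. It measured 11.7, 14.9 and 11.7 CPM at 0 h, 9.31, 8.94 and 9.70 CPM at 6 h and 21.4, 16.1 and 20.4 CPM at 24 h in co-culture. In mono-culture it measured 13.1, 10.5 and 13.4 CPM at 0 h, 10.5, 14.8 and 7.86 CPM at 6 h and 19.0, 22.6 and 29.1 CPM at 24 h. All 24 h libraries of each culture stood above its 0 h libraries. In mono-culture Vsir rose at 24 h by 0.94 ± 0.21 (adjusted p = 0.0121), the only one of the 6 genes tested to be called, where 10.5% of all genes were called. The call was lost without library 2 at 0 h (0.83) or library 3 at 24 h (0.75). The macrophage share of these libraries averaged 3.90% ± 3.39 at 24 h, against 0.844% ± 0.725 at 0 h (SD, n = 3 each), and its part in the Vsir change was not tested. In library 1, whose share was 0.0616% at 24 h and 0.0355% at 0 h, Vsir measured 19.0 CPM at 24 h and 13.1 CPM at 0 h. In the 6 libraries numbered 1 Vsir measured 9.31 to 21.4 CPM, and macrophage RNA would bring 0.188 to 0.430 CPM. In mono-culture libraries 2 and 3 at 24 h it measured 22.6 and 29.1 CPM, below brought levels of 36.1 and 45.1 CPM. Over the 18 libraries the measured level was above the brought level in 10.

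Il10ra had 0 counts in all 6 tumour cell libraries numbered 1, which had the lowest macrophage shares. In the other 12 it measured 0.827 to 6.55 CPM, and over the 18 libraries it was above the brought level in 7. With the block Il10ra was called at 24 h against 0 h in mono-culture, by 2.08 ± 0.62 (adjusted p = 0.0337), where 27.9% of all genes were called with the block. The macrophage share of these libraries was higher at 24 h too, as given for Vsir, and its part in the Il10ra change was not tested. Cd274 measured 1.85 to 7.89 CPM and Tgfb1 21.3 to 46.5 CPM, above the brought level in 17 and 18 of the 18 libraries. Chil3 reached 0.167 CPM, Il10 0.143 CPM and Arg1 0.338 CPM, and all 3 were below the filter on low counts. They were above the brought level in 0, 3 and 12 of the 18 libraries. In mono-culture library 2 at 6 h Chil3 had 0 counts, against a brought level of 0.897 CPM. For Chil3, as for Vsir in some libraries, the brought level thus exceeded what was measured.

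**Figure D5:**
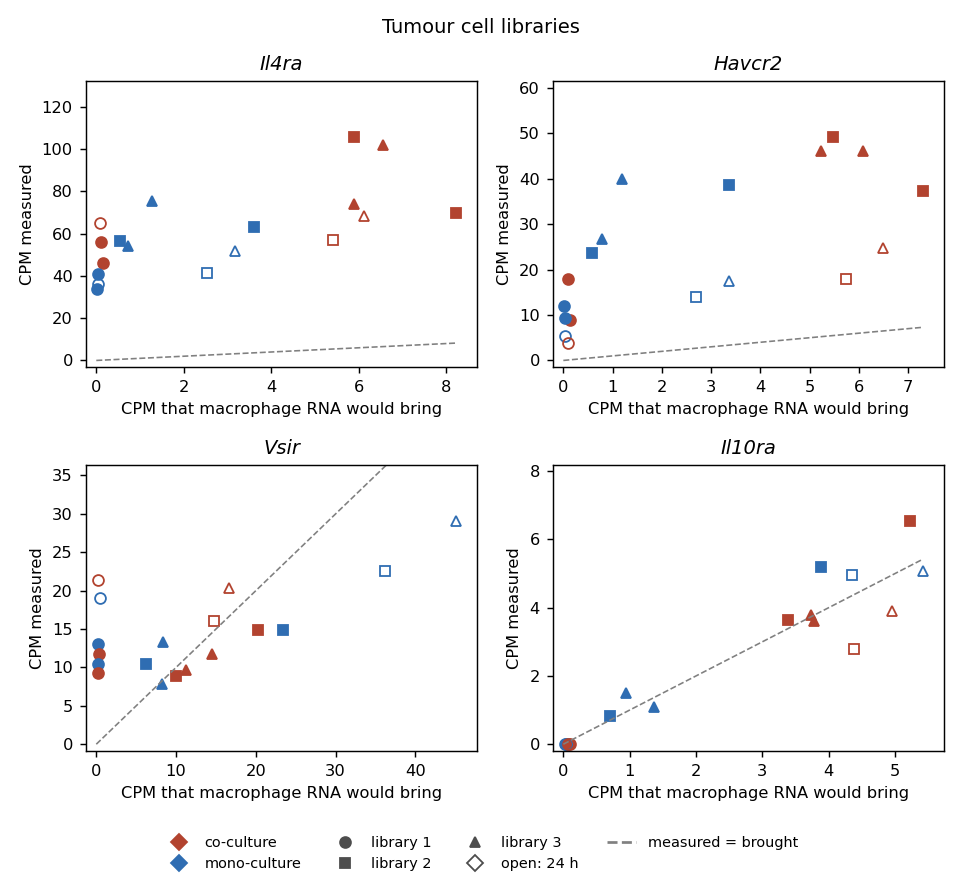
Measured CPM in the 18 tumour cell libraries (vertical axes) against the CPM that the macrophage share of each library would bring (horizontal axes) for Il4ra, Havcr2, Vsir and Il10ra; open symbols are 24 h and filled ones 0 h or 6 h, and the dashed line marks equal values. All points of Il4ra and Havcr2 lie above the line, and those of Il10ra lie along it.

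Co-culture against mono-culture called none of the 6 genes tested in tumour cells at 0 h (0% of all genes), 6 h (0%) or 24 h (0.0809%). At an unadjusted p under 0.05 edgeR passed 0 of them at each time, and DESeq2 called 0. The comparisons of 6 h with 0 h also called none, in co-culture (0.0147% of all genes) or mono-culture (0.00735%), with 1 of 6 at an unadjusted p under 0.05 in each and 0 by DESeq2. At 24 h in co-culture none was called (0.787% of all genes), with 1 at an unadjusted p under 0.05 and 0 by DESeq2. The difference of myelin changes between cultures was called for none of the 6 at 6 h or 24 h (0% of all genes each), with 0 at an unadjusted p under 0.05 and 0 by DESeq2. The share of all genes at an unadjusted p under 0.05 was not computed, so counts at that threshold have no background beside them.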

How the data were processed

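The deposited values are whole-number counts per gene and library, not normalised by the authors. Per the submitters' processing notes the genome build is mm10; which aligner and counter were used is not given in the sources at hand. Per the labels, RNA of sorted cells was reverse transcribed from oligo-dT primers with template switching from a few nanograms. Such libraries count polyadenylated transcripts after amplification, so low counts carry more error than counting alone gives.

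Groups came from the library titles. Counts were fitted in R 4.3.3 by edgeR 4.0.16 (with limma 3.58.1), with TMM scaling, filterByExpr and robust quasi-likelihood dispersions, in 1 fit over the 18 libraries of each cell type (13165 genes tested in macrophages, 13603 in tumour cells). The 36 libraries together gave 14776 genes for the comparisons between cell types. A standard error is the size of the log2 change divided by the square root of its F statistic. Levels are CPM on each cell type's own TMM scale, means are given with SD, and calls need an adjusted p under 0.05. The members and the gene lists were chosen with earlier results of these data known.

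All 9 measured genes were named throughout. Of each partner list the 2 called genes with the largest change per direction and comparison, with a mean of at least 10 CPM in a compared group, were open to naming, and most are named; others named for their role or level (Nos2) were chosen after their values were seen. Genes with the most similar pattern are the 3 with the highest Pearson r of log2(CPM + 1) over the 18 macrophage libraries.

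RNA of the other cell type was the median, over fixed markers with at least 100 CPM in their own cell type and at most 5% of that in the other, of a library's level over that of the other cell type. The brought level is this share times the gene's mean in the other cell type at the same culture and time. Single markers could lie far from the median, with 3.33% to 39.6% in mono-culture tumour cell library 3 at 24 h, where it was 6.46%. Brought levels are therefore rough.

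The labels do not say that library numbers pair the groups, so the main fits carry no block. By the correlation of same-number residuals, with every pair above 0.1, the numbers pair the libraries in all tumour cell comparisons (lowest 0.261), in macrophage comparisons with 0 h (lowest 0.337) and between cultures at 0 h (0.319). They do not between cultures at 6 h (lowest 0.093) and 24 h (0.0505).

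Alternatives were no low-count filter, RLE size factors, DESeq2 1.42.0, the compared groups alone, non-robust dispersions, the block, libraries 2 and 3 alone and each library left out in turn. The steps were tested on simulated data. For co-culture against mono-culture at 24 h, 100 genes with a mean of at least 10 CPM were changed 2-fold in each cell type. Of these, 96% were recovered in macrophages (12884 genes tested) and 82% in tumour cells (13458 genes tested). A further 100 genes changed 3-fold in the same run gave 97% and 93%. Genes with lower means were not changed, so these rates do not cover genes such as Arg1 and Il10. Simulated libraries were drawn independently, with no effect of library number and no varying RNA of the other cell type. The rates do not cover those features of the data either.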

Additional observations from a re-analysis of the deposited data

Results flagged for a closer look

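The co-culture change of Il4ra differed between the cell types at 0 h. In macrophages it measured 116, 157 and 133 CPM in co-culture, against 46.8, 55.7 and 51.3 CPM in mono-culture, and in tumour cells 45.9, 70.0 and 74.3 CPM in co-culture, against 33.7, 56.6 and 54.4 CPM in mono-culture. The interaction term, macrophages minus tumour cells, was 1.10 ± 0.33 on the log2 scale (adjusted p = 0.0466, edgeR, 14776 genes). This comparison was added after the data were seen. The adjusted p was 0.0563 with RLE size factors, 0.194 without the low-count filter, 0.0721 with the compared groups alone and 0.0234 by DESeq2. It was above the threshold in 9 of the 12 fits that each left out 1 library, where the difference was 0.79 to 1.30.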

How the results depend on the processing

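Of the alternative fits of the 22 called changes, 249 kept direction and call, 40 kept direction and lost the call, and none reversed. Of the 40, 32 left out 1 library. Fits that gave a gene no adjusted p are not in these counts. DESeq2 gave one for 21 of the 22 changes, and the compared groups alone and libraries 2 and 3 alone also lacked some. Il4ra and Vsir between cultures in macrophages kept their calls at 0 h, 6 h and 24 h in every alternative run. Counts of called genes below are of 9 in macrophages and 6 in tumour cells, with the share of all genes called by the same fit in brackets. Without the low-count filter 3 (11.9%) were called between macrophage cultures at 24 h, where Arg1 (adjusted p = 0.0661) and Cd274 (0.0925) were lost, and Havcr2 was lost at 6 h. DESeq2 called 1 (17.9%) in mono-culture macrophages at 24 h against 0 h. With the library number as a block (pairing as in the methods), macrophages had 1 call (5.07%) in mono-culture at 6 h against 0 h, 3 (22.2%) at 24 h, 1 (1.79%) in co-culture at 6 h and 2 (19.7%) at 24 h. In tumour cells the block gave 3 (27.9%) in mono-culture and 1 (9.28%) in co-culture at 24 h against 0 h, and 1 (6.12%) between cultures at 24 h. Between macrophage cultures at 6 h and 24 h the libraries share only a number, and the block added Il10 at 6 h (adjusted p = 0.0124) and Tgfb1 at 24 h (0.0484). It removed no call. Libraries 2 and 3 alone gave 1 (5.91%) in mono-culture macrophages at 6 h against 0 h, 2 (17.4%) at 24 h, 3 (15.4%) in co-culture at 24 h and 3 (23.1%) between cultures at 24 h, where Havcr2 was also lost at 6 h. In tumour cells they gave 2 (6.18%) in mono-culture at 6 h, 4 (35.9%) at 24 h, 1 (2.98%) in co-culture at 6 h, 1 (22.6%) at 24 h, and 2 (15.8%), 1 (9.16%) and 1 (24.1%) between cultures at 0 h, 6 h and 24 h. The added difference between cell types called 1 gene at 0 h, and 0 with RLE size factors (6.1%) or without the filter (2.29%). Libraries 2 and 3 alone called 2 (13.2%), 1 (8.59%) and 1 (15.4%) at 0 h, 6 h and 24 h, and the block (13.2%) and DESeq2 (12.5%) 1 each at 24 h. Leaving out 1 library at a time gave 0 to 1 in mono-culture macrophages at 6 h against 0 h, 0 to 2 at 24 h, 0 to 3 in co-culture at 24 h and 3 to 5 between cultures at 24 h. It gave 0 to 1 in mono-culture tumour cells at 24 h against 0 h, and 0 to 1 between cell types at 0 h and at 24 h. The cause of these losses and gains was not tested. Scalings moved the median of all genes by less than 0.1 on the log2 scale. Counts per library were 0 to 2 for Arg1 in mono-cultured macrophages, 8 to 21 for Il10 in co-cultured macrophages, and at most 4 for Arg1 and at most 2 for Chil3 and Il10 in tumour cells.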
